A study of Mus musculus with 29 samples.

Results

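Large H3K27me3 domains are the widest stretches of Polycomb-marked chromatin in unstimulated RAW264.7, a line of macrophage-like mouse cells that was transformed with Abelson leukaemia virus. They were selected on their measured width, as the untreated H3K27me3 peaks on chromosomes 1 to 19 and X that span at least 20 kb, and 3208 of 66659 such peaks met that limit. Chromatin immunoprecipitation and sequencing was done on 29 samples, and the analysis uses the 26 with a called peak list and not the 3 inputs. H3K27me3, H3K4me3, H3K4me1, H3K27ac, H3K36me2, H3K36me3 and H3K79me2 were each mapped without treatment and with lipopolysaccharide (LPS, a bacterial component that activates macrophages) given for 1 h or 4 h at 100 ng/ml. H3K4me1 and H3K36me2 were also mapped with flavopiridol, which inhibits the elongation kinase CDK9, given for 1 h alone or ahead of 4 h of LPS, and the transcription factor PU.1 was mapped in untreated cells only. All groups are the same cell line, with 1 library per mark and condition, so the spread between cultures is unknown, no test was possible, and every difference is between single libraries of unknown sequencing depth. Intervals given for shares are 95% Wilson intervals, and they cover counting error only.

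H3K27me3 is laid down by Polycomb repressive complex 2, whose catalytic subunit is EZH2, and marks genes that are kept silent in a cell type, often in blocks that hold several genes or a gene with its distal elements. H3K4me3 marks promoters and H3K4me1 marks promoter flanks and enhancers, and a promoter that carries both H3K4me3 and H3K27me3 is called bivalent. H3K27ac marks active promoters and enhancers and sits on the same lysine as H3K27me3, so a single histone tail cannot carry both. PU.1 is the lineage-determining factor of macrophages and binds enhancers of the myeloid programme.

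The domains were 4.81% of the untreated H3K27me3 peaks and held 111.4 of 362.5 Mb of H3K27me3, or 30.7% of its length and 4.22% of the chromosomes. Their widths, which the selection fixes from below, had a median of 28157 bp and reached 207616 bp. Of the 3208 domains, 1790 were under 30 kb, 412 were at least 50 kb and 57 were at least 100 kb, and those 57 alone held 7.51 Mb. The members just above the limit were chr14:67382216-67402227 at 20012 bp, chr2:12128611-12148625 at 20015 bp and chr4:62868365-62888379 at 20015 bp. The peaks just under it were chr11:74369248-74389244 at 19997 bp, and chr11:29505699-29525692 and chr8:37040596-37060589 at 19994 bp each. Positions are mm9 coordinates counted from 1.

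The domains were broad but shallow in the authors' deposited values. Their fold enrichment over the caller's background had a median of 1.57 and ran between 1.17 and 7.49. The −log10 q had a median of 2.10 and ran between 0.92 and 40.85, so some domains were weakly called. Narrower H3K27me3 peaks had medians of 1.527 (10 to 20 kb), 1.503 (5 to 10 kb) and 1.498 (under 5 kb). Width and fold enrichment had a Spearman rho of 0.0586 across the 3208 domains, which all come from 1 library. Between a domain and the LPS peak that shares most of it, the rho of the fold enrichments was 0.483 at 1 h over 3207 domains and 0.387 at 4 h over 3208, against 0.679 and 0.647 for the widths. The results below therefore rest on the extent of the peaks and not on their deposited strength.

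The 10 widest domains lay on chromosomes 1, 7, 9, 10, 11, 13 and 15. The widest, chr9:47128562-47336177, spanned 207616 bp and held no H3K4me3 island, 4 H3K4me1 islands and 8 PU.1 summits. Next came chr11:84327872-84533736 at 205865 bp, with 1 H3K4me3 island, 4 H3K4me1 islands and 10 PU.1 summits, among them the summit with the highest fold enrichment of any in a domain, 52.5. The third, chr7:151343615-151535490 at 191876 bp, held no island of either methylation and 5 PU.1 summits. The others were chr10:41254622-41430272, chr9:48453883-48623842, chr15:102719421-102883022, chr13:51571003-51733379, chr15:7064882-7223393, chr9:42869475-43027755 and chr1:137685311-137841215. An H3K27ac island was found in 1 of the 10 widest in untreated cells, in 2 at LPS 1 h and in 5 at LPS 4 h. H3K27me3 still covered 98.7 to 100.0% of each of the 10 at 1 h and 96.5 to 99.99% at 4 h.

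Large domains were unevenly spread over the chromosomes. Chromosome 11 held 280 domains, or 2.30 per Mb, chromosome 9 held 278, or 2.24 per Mb, and chromosome 2 held 365, or 2.01 per Mb. Chromosome 19 followed with 1.78 per Mb, while chromosome 18 with 55 domains and chromosome 10 with 100 had the lowest autosomal densities, 0.606 and 0.769 per Mb. Domains covered 8.62% of chromosome 9, 8.57% of chromosome 11 and 7.29% of chromosome 2, against 1.99% of chromosome 18. H3K27me3 as a whole showed the same extremes, since all its peaks covered 21.5% of chromosome 11 and 21.4% of chromosome 9 against 10.4% of chromosome 18. The share of a chromosome's H3K27me3 held in large domains also differed, at 40.3% on chromosome 9 and 19.1% on chromosome 18.

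The X chromosome had 11 domains in 166.7 Mb, or 0.0660 per Mb, against 3197 domains and 1.29 per Mb on the autosomes, so its density was 5.10% of theirs. The LPS lists gave 7 domains on X at 1 h and 9 at 4 h, which were 2.90% and 3.29% of the autosomal density of the same lists. All untreated H3K27me3 peaks covered 1.71% of X and 14.6% of the autosomes, a ratio of 0.118. The other untreated histone lists were also thinner on X, but less so, with ratios between 0.336 for H3K4me1 and 0.417 for H3K36me3, and PU.1 had 0.320. The lists with flavopiridol had lower ratios than these. H3K4me1 had 0.221 with flavopiridol alone and 0.177 with flavopiridol and LPS, and H3K36me2 had 0.278 and 0.118. A ratio as low as that of H3K27me3 was thus not particular to that mark. The flavopiridol and H3K27me3 samples form a separate, later run of sample numbers in the series. Their lists over all conditions had ratios of 0.115 to 0.278, and all other lists had 0.320 to 0.473. Mark, drug and a difference between these sets of samples therefore cannot be told apart. The widest X domain spanned 60352 bp. Whether fewer copies of X, its sequence or its chromatin sets the low cover was not tested.

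**Figure D1:**
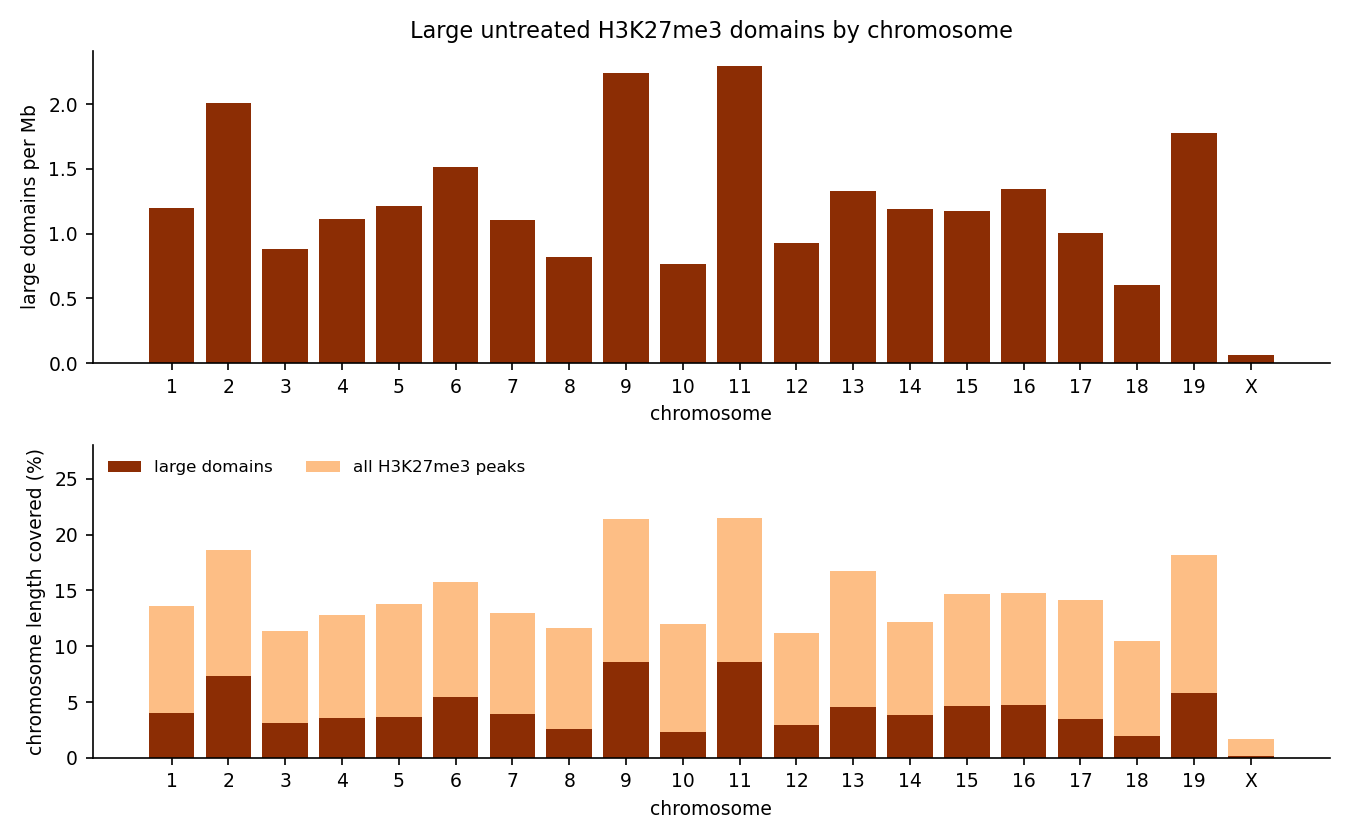
Large untreated H3K27me3 domains per Mb (top) and percent of chromosome length under large domains and under all untreated H3K27me3 peaks (bottom), for chromosomes 1 to 19 and X in 1 library. Chromosomes 11, 9 and 2 stand highest at 2.30, 2.24 and 2.01 domains per Mb, and X lowest at 0.0660.

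Within chromosomes the domains were clustered. Of 519 full windows of 5 Mb, 136 held no domain, 28 of them among the 33 windows on X, and the median window held 3. The 51 richest windows held 39.1% of all domains in full windows. The window at chr2:70000001-75000000 held 43 domains that covered 34.5% of it, chr9:60000001-65000000 held 41 over 33.2%, and chr9:45000001-50000000 held 32 over 31.2%. The shorter last window of chromosome 7, chr7:150000001-152524400, held 17 domains over 42.8% of its length.

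H3K4me3 islands lay inside 594 of the 3208 domains. An island here is a peak of another mark that lies wholly inside a domain. H3K4me3 gave 707 of them in untreated cells, with 503 domains holding 1 and 91 holding 2 or more, so that 18.5% of the domains held at least 1. The same share over untreated H3K27me3 peaks of any width was 2.30%, and wider peaks have more room for an island. By length, which does not favour wide peaks in this way, H3K4me3 covered 0.641% of the domains, 0.589% of H3K27me3 peaks of 10 to 20 kb, 0.484% of those of 5 to 10 kb, 0.344% of those under 5 kb and 1.60% of the chromosomes outside untreated H3K27me3. The domains thus had the highest H3K4me3 cover of the 4 width classes, and less cover than the chromosomes outside.

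The H3K4me3 islands differed from H3K4me3 peaks that met no untreated H3K27me3 peak. Their median width was 793 bp, against 1555 bp outside. H3K4me1 overlapped 62.2% of the islands and 94.8% of the peaks outside. H3K27ac overlapped 13.2% of the islands, 93 of 707, and 89.9% of the peaks outside. A PU.1 summit lay in 35.6% of the islands (32.2 to 39.2%) and in 75.8% of the peaks outside (75.2 to 76.4%). Marks of transcribed gene bodies were almost absent, since 3 islands met H3K79me2 and none of 707 met H3K36me3, against 44.2% and 13.3% outside. The islands are also narrower, and overlaps grow with width, so the part of width in these shares was not tested.

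The domains richest in H3K4me3 islands still held several at both LPS times, and their counts moved both up and down. Whether single islands in them recurred was not tested. In chr11:96021926-96145046, a domain of 123121 bp, 5 islands were found without LPS, 3 at 1 h and 5 at 4 h, beside 4, 4 and 7 H3K4me1 islands. The domain chr2:38170962-38285143 held 5, 4 and 3 H3K4me3 islands at the same times, and 0, 0 and 3 H3K27ac islands. H3K4me3 covered 3.72%, 3.26% and 7.79% of this domain, so at 4 h its cover was higher although the count was lower. In chr6:52156354-52253160, which had a deposited H3K27me3 fold enrichment of 3.38, the count was 4, 5 and 6. The domain chr3:87749510-87836176 held 4, 5 and 4, with 0, 2 and 2 H3K27ac islands, and chr15:102719421-102883022, the widest of 12 domains with 3 untreated islands, held 3, 4 and 3. H3K27me3 covered 96.85 to 99.95% of each of these 5 domains at 1 h and 99.28 to 100.0% at 4 h.

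H3K4me1 islands were more frequent. Untreated cells had 2396 of them in 1465 domains, or 45.7% of the domains, beside 6.26% of untreated H3K27me3 peaks of any width. H3K4me1 covered 3.37% of the domains, 3.06% of peaks of 10 to 20 kb, 2.82% of those of 5 to 10 kb, 2.43% of those under 5 kb and 7.97% of the chromosomes outside H3K27me3. H3K4me3 met 431 of the islands, so 17.99% carried it, against 33.5% of the H3K4me1 peaks outside. H3K36me2, a mark of active gene regions and their surroundings, met 2.13% of the islands and 65.0% of the H3K4me1 peaks outside. H3K36me3 met 0.250% against 36.0% outside and H3K79me2 0.167% against 25.8%. H3K27ac met 5.55% of the islands and 49.1% of the peaks outside. PU.1 differed much less, with a summit in 54.2% of the islands (52.2 to 56.2%) and in 62.5% of the peaks outside (62.1 to 62.9%). The median width was 1012 bp for the islands and 1807 bp outside.

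The other marks were rare in the domains of untreated cells. H3K27ac covered 0.162% of domain length against 3.65% outside, with 158 islands in 138 domains. H3K36me2 covered 0.333% against 12.2% outside, and in narrower H3K27me3 peaks its cover was higher, at 0.651%, 1.16% and 1.77% from the 10 to 20 kb class to the class under 5 kb. H3K36me3, found on the bodies of transcribed genes, covered 0.149% against 10.9%, and H3K79me2, found near the start of transcribed genes, 0.0406% against 4.44%.

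PU.1 had 4286 distinct summits inside the domains, in 2023 of 3208 domains or 63.1% (61.4 to 64.7%), beside 10.2% of untreated H3K27me3 peaks of any width. Their density was 38.5 per Mb in the domains, 30.3 in peaks of 10 to 20 kb, 23.1 in peaks of 5 to 10 kb, 14.3 in peaks under 5 kb and 43.1 outside H3K27me3. PU.1 density was thus lower in the domains than outside H3K27me3, where most sites with other marks lie, and highest in the domains among the 4 width classes. Within the domains it was 35.9 per Mb in those of 20 to 30 kb, 38.2 in those of 30 to 50 kb, 41.6 in those of 50 to 100 kb and 45.1 in those of at least 100 kb. The summits were spread along the domain, with 373 to 471 in each of 10 equal parts.

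**Figure D2:**
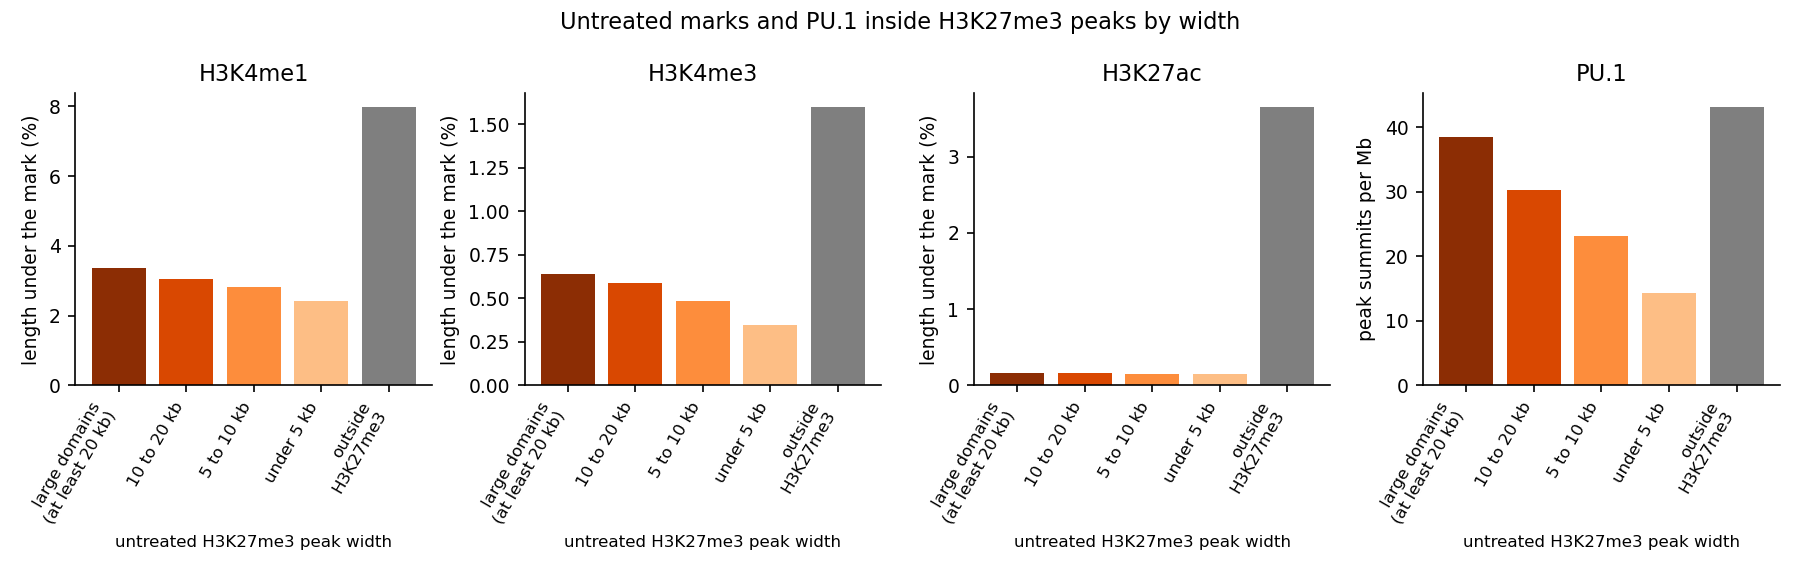
Percent of length under untreated H3K4me1, H3K4me3 and H3K27ac, and untreated PU.1 summits per Mb, in large domains, in 3 classes of narrower H3K27me3 peaks and outside H3K27me3 (1 library per mark, separate y axes). All 4 bars for the width classes fall with decreasing width for H3K4me1, H3K4me3 and PU.1, and large domains have 38.5 PU.1 summits per Mb against 43.1 outside, and 0.162% H3K27ac cover against 3.65%.

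Most PU.1 summits in the domains, as in narrower H3K27me3 peaks, lay outside the other marks. Of the 4286 summits, 2486 or 58.0% lay in none of the peaks of H3K4me3, H3K4me1, H3K27ac, H3K36me2, H3K36me3 and H3K79me2, against 15.9% of the 98054 summits outside H3K27me3. The share was 60.03% in peaks of 10 to 20 kb, 61.2% in those of 5 to 10 kb and 66.8% in those under 5 kb. H3K4me1 held 39.6% of the summits in domains and 70.0% of those outside. H3K27ac held 2.87%, or 123 summits, against 50.0% outside, and H3K4me3 6.98% against 25.5%. The deposited fold enrichment had a median of 5.50 in the domains and 6.37 outside, and was at least 10 for 21.4% against 30.8%. In the domains, summits in H3K4me1 had a median fold enrichment of 6.81 and summits outside H3K4me1 4.93.

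The domains with most PU.1 summits carried many H3K4me1 islands. They were also wide, at 77042 to 175651 bp against a median of 28157 bp, and wider domains have more room for both. In chr11:53996439-54111288 there were 15 summits and 6 H3K4me1 islands, and in chr12:80966780-81074195 there were 14 summits and 9 islands. The domain chr10:41254622-41430272 had 14 summits and 6 islands, chr3:84170549-84291293 had 13 and 8, and chr2:164747338-164824379 had 13 and 7. None of the 5 had more than 1 H3K4me3 island in untreated cells. In all, 12 domains held 10 or more summits, 552 held 3 or more and 1185 held none.

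Counted together, the contents split the domains into a bare and a marked part. No H3K4me3 island, no H3K4me1 island and no PU.1 summit was found in 914 domains, or 28.5%, with a median width of 24414 bp. A PU.1 summit with neither island was found in 720 domains, or 22.4%. An H3K4me1 island and a PU.1 summit without an H3K4me3 island were found in 813, or 25.3%, and all 3 features in 423, or 13.2%, with a median width of 34228 bp. Wider domains have more room for each feature.

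H3K27me3 stayed over nearly all of the domain length after LPS. Peaks of the 1 h list covered 97.3% of it and those of the 4 h list 97.8%, leaving 2.98 and 2.48 Mb uncovered. Peaks of 10 to 20 kb were covered over 93.8% at 1 h and 95.4% at 4 h, those of 5 to 10 kb over 89.8% and 92.2%, and those under 5 kb over 73.4% and 79.9%. Per domain the median was 98.9% at 1 h and 99.4% at 4 h, and 791 and 1065 domains were covered in full, 424 of them at both times. Both LPS lists together covered 99.1% of the domain length, and 96.0% lay under both.

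Few domains lost a sizeable part. Under 90% of the length was covered in 211 domains (6.58%) at 1 h and in 178 (5.55%) at 4 h, while the same was true of 47.8% and 38.3% of all untreated H3K27me3 peaks, most of which are narrow. The domains under 90% at both times numbered 68, which were 32.2% of those at 1 h and 38.2% of those at 4 h. Without any overlap there was 1 domain at 1 h and none of 3208 at 4 h, beside 13.6% and 9.43% of all untreated H3K27me3 peaks.

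The 2 domains covered by less than 50% each met a longer stretch without any H3K27me3 peak in that list. Stretches at least as long numbered 1156 in the 1 h list and 603 in the 4 h list for the 2 cases. The domain at 0 at 1 h, chr1:166129254-166153930, was covered over 93.5% at 4 h. It lay in a stretch of 253171 bp free of H3K27me3 peaks at 1 h, where the untreated list had 4 peaks over 42527 bp and the 4 h list 6 over 51718 bp, while 14 H3K4me1 and 5 H3K4me3 peaks were called there at 1 h. The domain with the lowest cover at 4 h, chr8:47342053-47382561, had 34.3% at 4 h and 94.4% at 1 h. It ran past the end of a stretch of 447607 bp free of H3K27me3 peaks at 4 h, where the untreated list had 2 peaks over 27243 bp and the 1 h list 9 over 112549 bp. The next lowest at 1 h were chr5:135214729-135237914 with 68.6%, chr12:104299503-104323763 with 72.8%, chr12:106991687-107018347 with 73.0% and chr3:120901229-120925330 with 74.1%, and none of these 4 held an H3K4me3, H3K4me1 or H3K27ac island in any of the 3 conditions.

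The next lowest at 4 h had other contents. In chr9:107191913-107213793, H3K27me3 covered 87.4% at 1 h and 61.0% at 4 h, while H3K27ac had no cover without LPS, 10.7% at 1 h and 38.7% at 4 h. In chr7:105673081-105697134, H3K27me3 covered 99.3% and 61.8%, and H3K27ac 17.3% without LPS, 77.2% at 1 h and 74.4% at 4 h. The domain chr1:157058736-157100656 was covered over 94.0% and 68.7% without H3K27ac in any condition. In chr9:50281121-50301509, which held 1 H3K27ac island at each time, the cover was 81.6% and 69.1%.

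Coverage was lowest at the edges. With each domain cut into 10 equal parts, the first and last part were covered over 93.6% and 93.9% at 1 h and over 95.0% and 94.8% at 4 h, while the 8 inner parts ran between 98.1 and 98.4% at 1 h and between 98.2 and 98.7% at 4 h. Cover also grew with width. It was 96.4% at 1 h and 97.0% at 4 h in domains of 20 to 30 kb, and 99.1% and 99.3% in those of at least 100 kb.

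**Figure D3:**
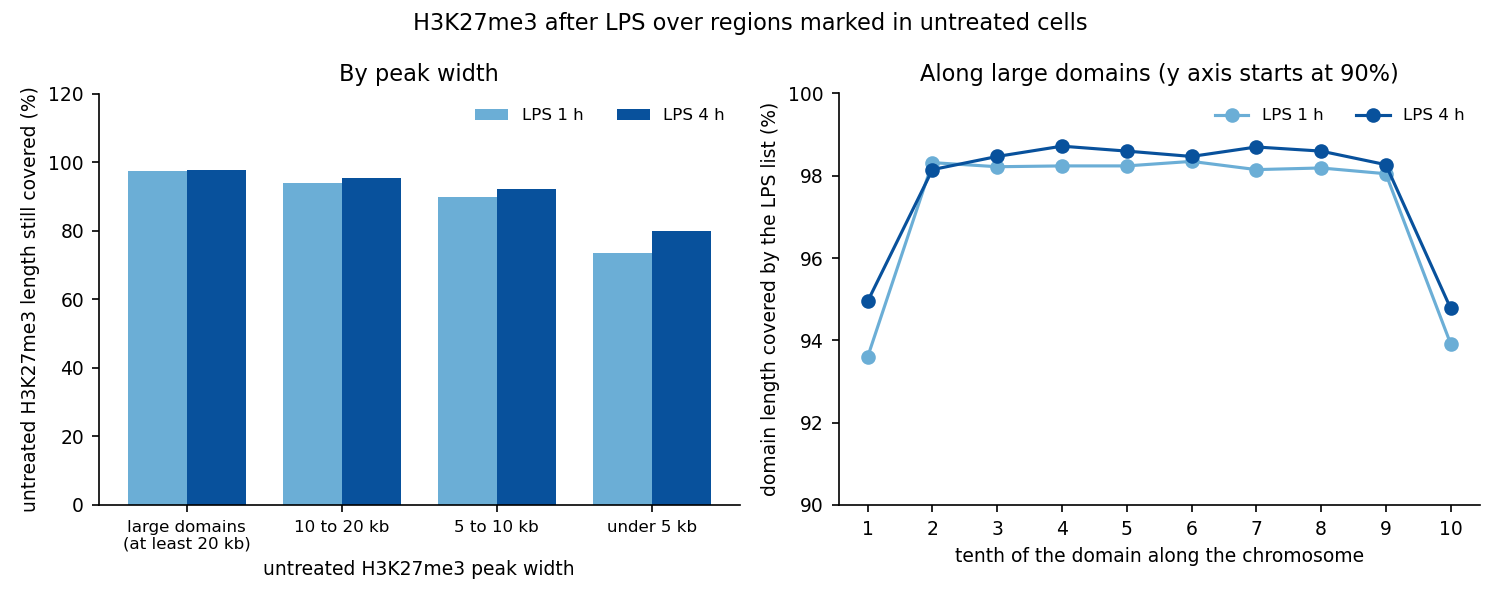
Percent of untreated H3K27me3 length still under an H3K27me3 peak at LPS 1 h and 4 h by untreated peak width (left), and percent of large-domain length covered in each of 10 equal parts along the domain (right, y axis from 90%), 1 library per time. Large domains keep 97.3% at 1 h and 97.8% at 4 h, peaks under 5 kb 73.4% and 79.9%, and the outer parts of the domains lie below the inner ones.

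Domains chosen for their width in 1 list can only equal or fall short of full cover in another, so the comparison was also turned round. The 1 h list had 3584 peaks of at least 20 kb over 125.5 Mb, and the untreated list covered 95.5% of them. The 4 h list had 4072 over 145.8 Mb, and the untreated list covered 93.1% of them. Between the LPS lists, the 4 h list covered 97.7% of the domains chosen at 1 h and the 1 h list 94.9% of those chosen at 4 h. The untreated list thus fell further short of the LPS domains than the LPS lists did of the untreated ones, and the lists also differ in their total length, which was 380.5 Mb at 1 h, 424.8 Mb at 4 h and 362.5 Mb in untreated cells.

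The division of a domain into peaks did change. A single LPS peak met 2217 domains (69.1%) at 1 h and 2352 (73.3%) at 4 h, and 2 to 5 peaks met 990 and 856. In the other direction, 140 peaks at 1 h and 176 at 4 h each met 2 or more domains, up to 3 and 4 domains in 1 peak.

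Where an LPS list interrupted a domain, PU.1 sites were dense. The 1 h list left 1245 internal gaps, which touch neither end of the domain, in 990 domains, with a median of 1430 bp. They held 347 PU.1 summits, or 180 per Mb, against 36.0 per Mb in the rest of the domains. The 4 h list left 1048 such gaps in 856 domains, with 183 summits per Mb against 36.3. Untreated H3K4me1 covered 16.9% of the gaps at 1 h and 3.13% of the rest, and 18.8% and 3.14% at 4 h. That contrast was smaller turned round, with untreated H3K4me1 over 5.07% of the gaps of the untreated list and 2.75% of the rest in domains chosen at 1 h, and over 4.125% and 2.65% in those chosen at 4 h. For PU.1 turned round, the gaps that the untreated list left in domains chosen at 1 h held 77.6 summits per Mb against 33.6, and those it left in domains chosen at 4 h held 66.9 against 33.0. Gaps of the 4 h list in domains chosen at 1 h held 134 against 33.4, and gaps of the 1 h list in domains chosen at 4 h held 103 against 32.2. PU.1 was denser in the gaps than in the rest in all 6 pairings of lists, and densest in those where the untreated list chose the domains. PU.1 was mapped in untreated cells only, so its occupancy after LPS is unknown.

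**Figure D4:**
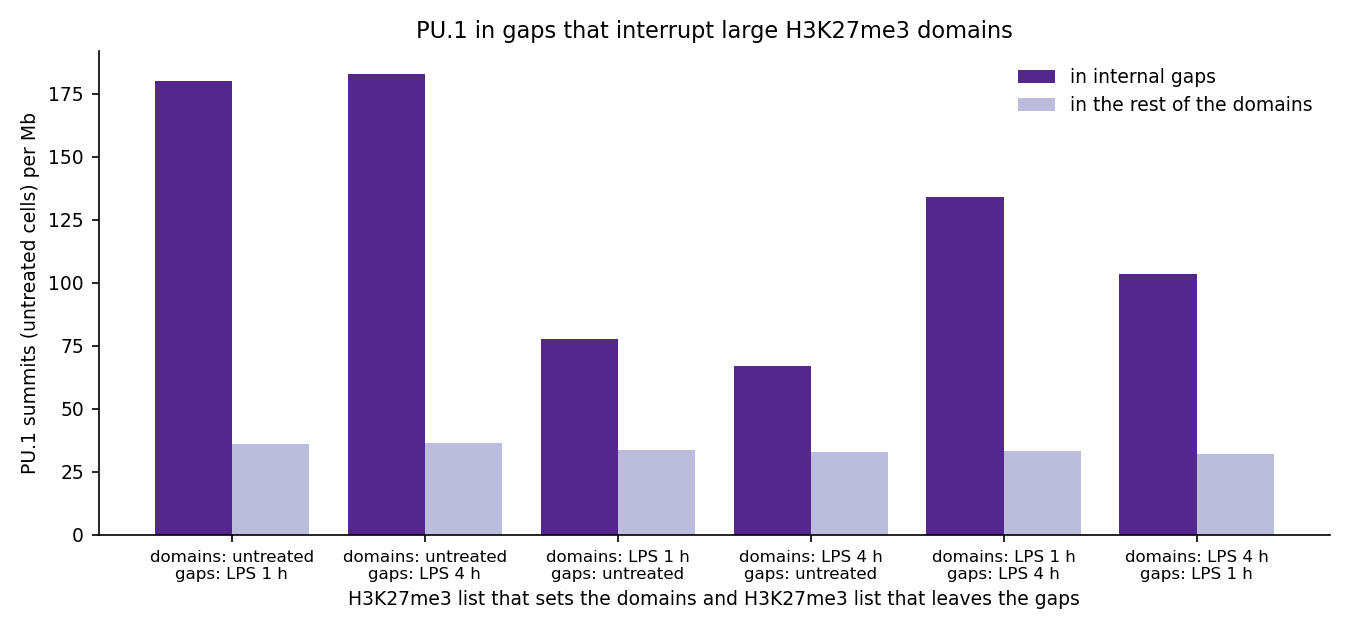
Untreated PU.1 summits per Mb inside internal gaps and in the rest of large domains, for 6 pairings of the H3K27me3 list that sets the domains (at least 20 kb) with the list that leaves the gaps (1 library each). Gaps hold 66.9 to 183 summits per Mb and the rest 32.2 to 36.3.

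The same was seen at single sites. At PU.1 summits at least 5 kb from a domain end, H3K27me3 was present over 2922 of 3170 at 1 h, or 92.2% (91.2 to 93.1%), and over 93.3% (92.3 to 94.1%) at 4 h, against 98.3% and 98.6% of the length at least 5 kb from the ends. For summits with a fold enrichment under 5 the share was 94.3% at 1 h and 95.4% at 4 h, and for those of at least 20 it was 84.6% (79.1 to 88.9%) and 85.1% (79.6 to 89.3%). With the domains chosen at 1 h and read in the untreated list it was 94.7% and 87.8% for the weak and strong summits, and with those chosen at 4 h it was 92.3% and 81.7%. The strong summits had lower H3K27me3 cover than the weak ones in all 6 pairings of lists.

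Islands of H3K4me1, H3K4me3 and H3K27ac inside the domains were more numerous at LPS 4 h than in untreated cells or at 1 h. H3K4me1 islands numbered 2396 without LPS, 2464 at 1 h and 3275 at 4 h, and covered 3.37%, 3.43% and 4.78% of the domain length. H3K4me3 islands numbered 707, 697 and 838, with a cover of 0.641%, 0.655% and 0.826%. H3K27ac islands numbered 158, 156 and 365, with a cover of 0.162%, 0.189% and 0.511%. Outside untreated H3K27me3 the cover at 4 h relative to untreated cells was 1.02 for H3K4me1, 1.07 for H3K4me3 and 1.07 for H3K27ac, against 1.42, 1.29 and 3.15 in the domains. Narrower H3K27me3 peaks also had more of all 3 marks at 4 h, so large domains were not alone in this. In the 10 to 20 kb class H3K4me1 covered 4.42% at 4 h and 3.06% in untreated cells. There H3K4me3 covered 0.746% and 0.589%, and H3K27ac 0.472% and 0.155%. The 4 h lists of all 3 marks are also longer than the untreated ones, and whether depth sets this was not tested.

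Most H3K27ac islands at 4 h had no counterpart in untreated cells. Of 365 islands, 287 or 78.6% (74.1 to 82.5%) overlapped no untreated H3K27ac peak, beside 21.3% of all 4 h H3K27ac peaks. At 1 h it was 90 of 156, or 57.7%, beside 9.05%. The domains' islands are narrow and narrow peaks recur less between lists, but among peaks of at least 1 kb the share was 77.3% (70.0 to 83.2%) of 154 at 4 h beside 11.6% of all, and among those under 1 kb 79.6% beside 45.5%. Untreated H3K27ac islands also recurred less, since 59.5% of 158 had no overlap at 1 h and 50.6% at 4 h, beside 18.8% and 12.9% of all untreated H3K27ac peaks.

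H3K4me1 and H3K4me3 islands recurred more. New H3K4me1 islands were 500 of 2464 at 1 h, or 20.3%, beside 7.27% of all, and 1151 of 3275 at 4 h, or 35.1%, beside 15% of all. Among H3K4me1 peaks of at least 1 kb, 18.9% (17.1 to 20.8%) of those in domains were new at 4 h beside 5.29% of all. Untreated H3K4me1 islands without overlap were 18.1% at 1 h and 10.0% at 4 h, beside 10.7% and 6.55%. Among those under 1 kb the shares were near those of all such peaks, at 31.9% beside 31.4% at 1 h and 17.9% beside 19.9% at 4 h. New H3K4me3 islands were 73 of 697 at 1 h, or 10.47%, beside 5.69% of all, and 178 of 838 at 4 h, or 21.2%, beside 9.64%. Among H3K4me3 islands under 1 kb the new share at 1 h was near that of all such peaks, at 16.3% (13.1 to 20.0%) beside 15.6%. At 4 h it was 32.2% (28.4 to 36.4%) beside 25.1%. Among those of at least 1 kb, 1 of 255 was new at 1 h, or 0.392% beside 0.220%, and 11 of 320 at 4 h, or 3.44% beside 1.12%. Untreated H3K4me3 islands without overlap were 11.5% at 1 h and 5.94% at 4 h, beside 7.85% and 6.55% of all. Among those under 1 kb they were lower than for all such peaks, at 16.95% beside 20.7% at 1 h and 9.01% beside 17.2% at 4 h. Among H3K4me3 islands of at least 1 kb, 2 of 241 had no overlap at 1 h and 0 of 241 at 4 h, where the upper end of the interval is 1.57%.

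**Figure D5:**
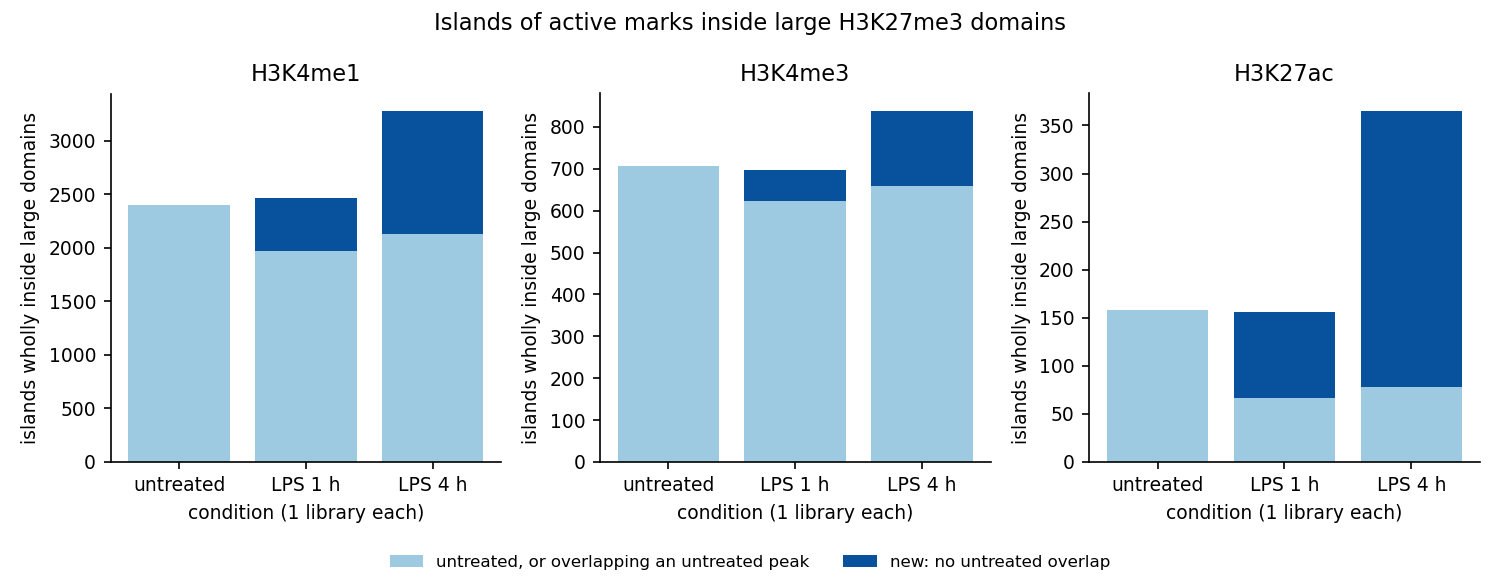
Number of H3K4me1, H3K4me3 and H3K27ac islands wholly inside large untreated H3K27me3 domains in untreated cells and at LPS 1 h and 4 h (1 library each, separate y axes), with those that overlap no untreated peak of the same mark in dark blue. At 4 h these are 1151 of 3275, 178 of 838 and 287 of 365 islands.

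The H3K27ac islands new at 4 h lay mostly at sites already marked by H3K4me1. Untreated H3K4me1 met 64.5% of the 287 and untreated H3K4me3 27.5%, against 79.4% and 7.28% of the 6370 new H3K27ac peaks outside untreated H3K27me3. By 4 h H3K4me1 met 91.3% of those in domains and 91.3% of those outside. An untreated PU.1 summit lay in 40.4% (34.9 to 46.2%) of those in domains and in 38.7% of those outside, with median widths of 872 and 791 bp. H3K36me2 at 4 h met 5.92% against 57.4%. Of the 90 islands new at 1 h, 72 or 80.0% had an H3K27ac peak at 4 h, and the share over all 2613 peaks new at 1 h was 77.8%.

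H3K27me3 cover was lower at these places than over the domains. The bases under the 287 islands new at 4 h were covered over 89.2% at 1 h and 74.2% at 4 h, against 97.3% and 97.8% of the domain length. The bases under the 90 islands new at 1 h were covered over 87.6% at 1 h and 65.2% at 4 h. Even so, 214 of the 287 islands lay wholly under H3K27me3 at 4 h, and 30 had none. Both marks over the same bases come from separate immunoprecipitations of a cell population, so the same cells or alleles carrying both cannot be told apart from mixed cells.

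New H3K27ac was concentrated in few domains. It covered 489.0 kb in 353 domains, and the 5 domains with most of it held 13.9% of that length and the top 50 held 54.3%. In chr1:137685311-137841215, H3K27ac was absent without LPS and covered 3.22% at 1 h and 10.3% at 4 h, with 16114 bp newly covered at 4 h, and H3K27me3 still covered 96.5%. In chr11:53996439-54111288, the domain with most PU.1 summits, H3K27ac covered 0.489%, 0.522% and 12.6%. In chr2:29036423-29153830 it covered 0%, 2.14% and 10.6%, and H3K27me3 still covered 99.7% at 4 h. In chr2:164747338-164824379 it covered 0% and 0.578% and then 11559 bp newly at 4 h, and H3K27me3 covered 94.8% at 4 h. The other of these 5 was chr7:105673081-105697134, with 13745 bp newly covered, described above among the domains with the lowest H3K27me3 cover at 4 h. New H3K27ac thus appeared both in domains that kept H3K27me3 and in one where it covered 61.8% at 4 h.

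H3K36me2 stayed rare in the domains, with 0.333% without LPS, 0.454% at 1 h and 0.610% at 4 h. Relative to untreated cells that is 1.83 at 4 h, against 1.24 outside, from a low base of 141 islands in 79 domains. H3K36me3 covered 0.149%, 0.152% and 0.157%, and H3K79me2 0.0406%, 0.0483% and 0.0504%.

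By length covered, flavopiridol without LPS went with more H3K4me1 in the domains and less outside. Flavopiridol ahead of LPS went with less covered length in both. After flavopiridol alone H3K4me1 covered 4.88% of the domain length, against 3.37% in untreated cells, with 3895 islands against 2396. Outside untreated H3K27me3 it covered 5.72% after flavopiridol against 7.97% in untreated cells. Of the 707 untreated H3K4me3 islands, the H3K4me1 list after flavopiridol met 678, or 95.9% (94.2 to 97.1%), and the untreated H3K4me1 list 440, or 62.2% (58.6 to 65.7%), while for all untreated H3K4me3 peaks the shares were 95.0% and 91.5%. With flavopiridol ahead of LPS for 4 h, H3K4me1 covered 4.31% of the domains against 4.78% with LPS for 4 h alone, and 4.64% against 8.13% outside. The number of H3K4me1 islands in the domains was higher with the drug here too, at 3605 against 3275. Of the 1151 H3K4me1 islands new at LPS 4 h, 44.4% (41.6 to 47.3%) were met after flavopiridol and LPS and 47.6% (44.7 to 50.5%) after flavopiridol without LPS, beside 25.1% and 28.3% of all new H3K4me1 peaks. H3K36me2 covered 0.299% of the domains after flavopiridol against 0.333% untreated, and 0.151% after flavopiridol and LPS against 0.610% after LPS for 4 h. The H3K4me1 list itself is shorter with the drug, at 143.7 Mb against 192.1 Mb in untreated cells. The drug lists also had a lower ratio of X to autosomal cover, at 0.221 against 0.336 for H3K4me1 without LPS. They belong to the later run of sample numbers, and the lists without the drug that they are compared with do not. Each list is 1 library, so drug and library differences cannot be told apart.

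The deposited chromatin states placed most of the domain length in 1 state. In the 27-state segmentations, which name a state for each 200 bp step, state 19 took 91.6% of the domain length without LPS, 93.8% at 1 h and 87.0% at 4 h, against 10.9%, 13.1% and 9.89% of the chromosomes. H3K27me3 peaks of the same condition covered 95.7%, 93.1% and 98.4% of state 19, and H3K4me1 peaks 1.48%, 1.37% and 1.86%. State 27, which held little of any mark, took 5.84%, 3.54% and 9.31% of the domains. State 18, with H3K4me1 over 83.4% and H3K27me3 over 96.4% of its untreated length, took 1.34%, 1.38% and 1.60%, and 40.8% of all its untreated length lay in large domains. State 20, with H3K4me3 over 91.9% and H3K27me3 over 97.9% of its untreated length, took 0.399%, 0.404% and 0.460%, and 39.9% of it lay in large domains. State 16, with H3K4me1 over 98.1% and H3K27me3 over 5.58% of its untreated length, took 0.493%, 0.512% and 0.928%. The state 19 share of the domains was lower at 4 h than at 1 h while the share under H3K27me3 peaks was not, so segmentations and peak lists differ in direction between these times.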

How the data were processed

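Peak lists of 26 samples were used, and 3 inputs have none. The submitters' processing notes name mm9, Bowtie 1.0.1 and MACS2. Not given in the sources used here: version and settings of MACS2, its control, any pooling and the read depth. The deposited fold enrichment is the ratio of a peak to the background that the caller estimated, the −log10 p and −log10 q of a peak are the authors' values, and the deposited score follows from the −log10 q and was not used. The PU.1 list has 107986 deposited lines, taken as 107962 distinct summits on chromosomes 1 to 19 and X. The authors deposited 4 segmentations by an unnamed tool, and their ends served as chromosome ends.

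Domains, islands and coverage were computed with Python 3.11.15, numpy 2.4.6 and pandas 2.3.3, and Wilson intervals with scipy 1.17.1, after the interval functions were tested on simulated data. Overlap means at least 1 bp and islands lie wholly inside a domain. Peaks were compared with narrower H3K27me3 peaks (under 5, 5 to 10 and 10 to 20 kb) and with chromosomes outside them. No test was run, since each group has 1 library.

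The members and lists were chosen with earlier results of these data known. Named domains are the 10 widest, the 5 with most H3K4me3 islands (the fifth, one of 12 with 3, taken by width), the 5 with most PU.1 summits, the 5 least covered at 1 h and the 5 at 4 h, the 5 with most new H3K27ac at 4 h, and the 3 peaks on either side of the width limit. The windows, chains and long gaps named were chosen after their values were seen. Alternatives were other width limits, joined peaks, stronger peaks, other overlap rules and other choosing lists. No mm9 annotation was used here, so no domain is assigned to a gene.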

Additional observations from a re-analysis of the deposited data

Results flagged for a closer look

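The share of domain length under H3K4me1 moved in opposite directions with flavopiridol. Without LPS it was higher after flavopiridol by 1.51 percentage points (4.88% against 3.37% in untreated cells), and at LPS 4 h it changed by -0.467 points (4.31% with flavopiridol against 4.78% without). Each of the 4 values is 1 library, so drug and library differences cannot be told apart, and the difference between the effects was not tested. The number of H3K4me1 islands did not move in opposite directions. It was higher with the drug without LPS (3895 against 2396) and at LPS 4 h (3605 against 3275). Nor were large domains alone in the split by length. In the 10 to 20 kb class the cover was 3.96% against 3.06% without LPS and 3.39% against 4.42% at LPS 4 h.

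The share of domain length in state 19 also moved in opposite directions after LPS, by 2.21 percentage points at 1 h (93.8% against 91.6% in untreated cells) and by -4.60 points at 4 h (87.0% against 91.6%). Each condition has 1 segmentation, and this difference was not tested.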

How the results depend on the processing

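Of 52 alternatives over 8 results, 36 stayed within 1.5 times the value given (counts, densities and ratios) or, for coverage, within an interval that treats the 3208 domains as the sample, and 16 moved. The number of domains was 9339 at 10 kb, 5166 at 15 kb, 1418 at 30 kb and 329 when −log10 q had to reach 5. The same limit set on the H3K4me1 islands, over all domains, gave 11.2 islands per Mb in place of 21.5, and a PU.1 fold of at least 10 gave 8.23 summits per Mb in place of 38.5. With domains of at least 30 kb the density on X was 1.05% of the autosomal one in place of 5.10%. Length covered at 1 h was 9.55% and at 4 h 9.02% when LPS peaks had to reach the same −log10 q of 5, and peaks past that limit hold 10.9% of the domain length in the untreated list itself. These were often not the same domains. Among the 329 untreated domains past the limit, the LPS peak sharing most of the domain also passed in 162 (49.2%) at 1 h. At 4 h it did so in 121 (36.8%). Over all domains the shares were 9.9% and 8.6%. Coverage at 1 h and 4 h was 95.8% and 96.7% for domains of at least 10 kb and 97.9% and 98.2% for those of at least 30 kb. Turned round, it was 95.5% and 93.1% for LPS domains in the untreated list, and 94.9% for 4 h domains in the 1 h list. H3K27ac islands at 4 h were 2.31 times those in untreated cells and 1.98 to 3.35 times under 6 alternatives added after the data were seen. Joining peaks within 1 kb changed nothing, as no 2 untreated peaks are closer than 1193 bp. No paired analysis was possible because each mark and condition has 1 library.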

Other observations

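The surroundings of the domains held more PU.1, H3K4me1, H3K4me3 and H3K27ac than the chromosomes did, and less H3K36me2, H3K36me3 and H3K79me2. In the 10 kb on either side of each domain, PU.1 had 96.3 summits per Mb, against 38.5 inside and 40.9 over the chromosomes. H3K4me1 covered 14.0% of these flanks, against 3.37% inside and 7.28% of the chromosomes. H3K4me3 covered 3.55%, against 0.641% and 1.45%, and H3K27ac 5.19%, against 0.162% and 3.17%. H3K36me2 covered 6.79% of the flanks and 10.7% of the chromosomes, H3K36me3 5.78% and 9.41%, and H3K79me2 3.13% and 3.84%. Other H3K27me3 peaks covered 47.1% of the flanks without LPS. Peaks of the LPS lists, which can run from a domain into its flank, covered 53.0% at 1 h and 57.1% at 4 h.

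Neighbouring domains were a median of 99570 bp apart, and 445 of the 3188 gaps between them were under 5 kb. Those short gaps, with a median of 1785 bp, held a PU.1 summit in 156 cases (35.1%), an H3K4me1 peak in 147 (33.0%) and an H3K4me3 peak in 36 (8.09%), and PU.1 had 218 summits per Mb there. H3K27me3 filled 118 of them (26.5%) at 1 h and 150 (33.7%) at 4 h. Domains less than 5 kb apart formed 352 chains of 797 domains. The longest chain, chr15:102570732-102980649, held 4 domains over 409918 bp, chr7:151769974-152093013 held 3 over 323040 bp, and chr2:74417875-74663083 held 6, the most in any chain, over 245209 bp.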
